A study of Homo sapiens with 4 samples.

Results

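The Notch pathway and the HES family of transcriptional repressors were examined through 10 genes: the ligands JAG1 and JAG2, the receptors NOTCH1, NOTCH2 and NOTCH3, the DNA-binding factor RBPJ, the repressors HES1, HES4 and HEY1, and HES6. They were taken by gene symbol from a platform on which 19775 genes had a probe set of their own. All 10 were found, with 26 of the 54613 non-control probe sets, and 1 more probe set was shared between NOTCH2 and its NOTCH2NL copies. The genes were chosen by pathway with the log2 ratios of these same arrays already known, among them that of HES6 with the mimic, so their values are given as a description and not as a test.

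Transcript levels were recorded in HCCLM3, an established human liver cancer line, after magnetic sorting on EpCAM, an epithelial adhesion molecule, with 1 Affymetrix Human U133 Plus 2.0 array in each of 4 groups. EpCAM-negative cells were transfected with 100 nM of an NC (negative-control) mimic or of miR-429 mimic, a double-stranded RNA that delivers the mature microRNA. EpCAM-positive cells received 40 µM of an NC antagomir or of antagomir-429, a cholesterol-conjugated antisense RNA. Treatment lasted 4 days in all groups, all 4 groups came from this 1 line, and the title of the series names the search for miR-429 targets as its purpose. Sort fraction, reagent type and dose therefore changed together between the mimic pair and the antagomir pair and cannot be told apart.

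Notch receptors are cut after a Jagged or Delta ligand on a neighbouring cell pulls on them, and the freed intracellular domain enters the nucleus. There it joins RBPJ and Mastermind coactivators and switches on genes such as HES1, HES4 and HEY1, whose products repress transcription in turn. HES6 is the unusual member of its family, since it is known to counteract HES1 and is linked to neural differentiation rather than to direct Notch activation. In liver the pathway is best known for directing bile duct fate. The miR-200 family, to which miR-429 belongs, has been reported in other cancers to lower JAG1 and the Mastermind genes MAML2 and MAML3.

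The mature sequences are shown because they define what the mimic supplies and what the antagomir opposes. They were taken from RefSeq (GRCh38.p14), are written 5′ to 3′, and carry the seed, bases 2 to 8, in capitals. miR-429 lies at chr1:1169055-1169076 on the plus strand, in the chromosome 1 cluster that also holds miR-200b and miR-200a.
miR-429: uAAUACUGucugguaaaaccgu
miR-200b-3p: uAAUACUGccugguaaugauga
miR-200c-3p: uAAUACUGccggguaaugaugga
miR-200a-3p: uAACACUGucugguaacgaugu
miR-141-3p: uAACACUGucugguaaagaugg
The first 3 share the seed AAUACUG, while miR-200a and miR-141 share AACACUG. Target reports for miR-200b and miR-200c therefore concern the miR-429 seed as well.

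The promoters of HES1, HES4 and HES6 are shown because these family members had unlike values on the arrays. Each window is the 250 bases before the transcription start, read 5′ to 3′ along the gene (RefSeq, GRCh38.p14), with every match to TGGGAA, the core of the RBPJ site, in capitals. HES1 lies at chr3:194135898-194136147 on the plus strand, HES4 at chr1:1000098-1000347 on the minus strand and HES6 at chr2:238240039-238240288 on the minus strand.
HES1: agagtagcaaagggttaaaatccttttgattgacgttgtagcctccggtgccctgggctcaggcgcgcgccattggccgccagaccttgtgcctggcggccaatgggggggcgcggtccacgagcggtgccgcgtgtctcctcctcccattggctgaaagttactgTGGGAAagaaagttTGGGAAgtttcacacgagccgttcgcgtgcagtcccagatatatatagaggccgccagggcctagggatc
HES4: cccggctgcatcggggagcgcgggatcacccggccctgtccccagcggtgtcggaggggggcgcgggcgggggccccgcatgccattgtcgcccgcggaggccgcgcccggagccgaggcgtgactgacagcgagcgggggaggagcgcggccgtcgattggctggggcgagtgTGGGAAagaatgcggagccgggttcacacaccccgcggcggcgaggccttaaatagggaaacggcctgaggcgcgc
HES6: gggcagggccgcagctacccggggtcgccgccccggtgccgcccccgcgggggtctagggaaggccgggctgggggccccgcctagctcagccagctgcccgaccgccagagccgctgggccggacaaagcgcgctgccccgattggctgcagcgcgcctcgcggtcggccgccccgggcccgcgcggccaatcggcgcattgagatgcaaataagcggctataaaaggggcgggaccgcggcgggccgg
On both strands, HES1 held 2 matches, starting 84 and 70 bases before the start site, HES4 held 1, at 76 bases, and HES6 held 0. Over all 35116 promoter windows of this length, 20.8% held at least 1 match and 2.90% at least 2. The longer form GTGGGAA, which overlaps that core, occurred once in HES1 and once in HES4, against 5.43% of all windows with at least 1. The N box CACNAG, the element that HES proteins bind, occurred 3 times in HES1 and 0 times in HES4 and HES6; 32.0% of windows held at least 1 and 0.911% at least 3. Of the other members with a window, NOTCH1, NOTCH2, NOTCH3, JAG1 and JAG2 held 0 TGGGAA matches, and 1 of the 5 RBPJ windows held 2. A match is a string of letters and not a measured site.

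Values are MAS5 signals on the linear scale, and ratios are log2 ratios between single arrays, with no replicate and hence no test. A signal of 52.9, the median over all probe sets, is called the floor, and 20 of the 26 probe sets had a mean at or above it. All 10 genes passed by their brightest probe set, as did 13180 genes in all. Of the 10, 9 also passed a stricter filter on the mean, at a signal of 265.6. HES6 did not, with a mean of 250 that takes in its low miR-429 mimic array. Median signals of the arrays lay between 62.7 and 67.1. Actin 3′ to 5′ ratios, a measure of RNA integrity, differed most within the mimic pair. They were 3.41 with the NC mimic, 2.63 with the miR-429 mimic, 3.12 with the NC antagomir and 3.07 with antagomir-429. The same ratios for GAPDH lay between 0.90 and 0.92. The part of RNA integrity in the values below was not tested. The scatter of genes depended on brightness: the robust SD of the mimic ratio was 0.82 in the dimmest of 4 equal signal bins of expressed genes, then 0.53, 0.46 and 0.36, and that of the antagomir ratio 0.79, 0.41, 0.26 and 0.15. EPCAM mRNA did not separate the sorted fractions, with 1106 on the EpCAM-negative NC mimic array and 1235 on the EpCAM-positive NC antagomir array. It was 3838 with the miR-429 mimic, a log2 ratio of 1.80, and 913 with antagomir-429. The epithelial keratins KRT8 and KRT18 lay between 28365 and 50499. Of the liver plasma proteins, albumin (ALB) was under the floor on all 4 arrays. The fetal liver protein AFP lay between 91.5 and 119, and APOA1 between 66.2 and 91.7. APOB was above the floor in both treated arrays only (86.9 with the miR-429 mimic and 94.0 with antagomir-429). TTR was above it with the NC antagomir only (174). Of the bile duct markers, KRT7 (15025 to 17438) and SOX9 (803 to 1503) were above the floor and KRT19 and SPP1 were under it on every array. The 4 measured leukocyte markers, 2 of them past the filter, had a summed signal of 153 to 264, with the pan-leukocyte gene PTPRC under the floor on every array. The 4 endothelial markers (2 past the filter) summed to 198 with the NC mimic, 454 with the miR-429 mimic, 270.1 with the NC antagomir and 301 with antagomir-429. The 6 fibroblast and stellate markers (4 past the filter) summed to 8026 to 11393, of which the collagen COL1A1 made up the most. The part of other cell types in the values below was not tested.

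HES6 was the member whose signal differed most. It was 535 with the NC mimic, 54.9 with the miR-429 mimic, 294 with the NC antagomir and 454 with antagomir-429. The miR-429 mimic array thus stood far below the other 3, just above the floor. The log2 ratio with the mimic was -3.28, or 9.74-fold lower, and that with antagomir-429 was 0.62, or 1.54-fold higher. Between the control arrays the EpCAM-positive cells had the lower value, with a log2 ratio of -0.86. The mimic ratio was -6.25 times the robust SD of its signal bin and the lowest of the 3295 genes there, a ranking known when the gene was chosen. The antagomir ratio was 1.50 times that SD and ranked 310 from the top of that bin. HES6 had 1 probe set (226446_at), so no second probe set checks it. In RNA of a whole culture, fewer expressing cells and less RNA per cell cannot be told apart.

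The HES and HEY repressors that Notch is known to induce showed much smaller differences. For HES1 the brightest probe set (203394_s_at) gave 2585 with the NC mimic, 3047 with the miR-429 mimic, 2705 with the NC antagomir and 2254 with antagomir-429. The order puts the miR-429 mimic highest and antagomir-429 lowest, with log2 ratios of 0.24 and -0.26. The second probe set hardly moved, between 1213 and 1248 over the 4 arrays, and the third was under the floor throughout. HES4, measured by 1 probe set (227347_x_at), was among the brightest 5.81% of genes and lay at 7581, 7157, 6701 and 6999 in the same order of arrays. Its log2 ratios were -0.08 with the mimic and 0.06 with the antagomir. Its widest difference, 1.13-fold, was that between the control arrays (-0.18).

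HEY1, a related repressor, gave 1553, 1797, 1398 and 1326 in that order, with log2 ratios of 0.21 and -0.08. Its other probe set gave 874, 1112, 977 and 733, with 0.35 and -0.42. Both probe sets of HEY1, like both bright ones of HES1, were highest with the miR-429 mimic and lowest with antagomir-429. With the mimic, HES1 and HEY1 stayed within the robust SD of genes of like signal. With the antagomir, the brighter HES1 probe set (scatter 0.15) and the dimmer HEY1 one (scatter 0.26) lay beyond it, in the direction opposite to HES6.

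**Figure D1:**
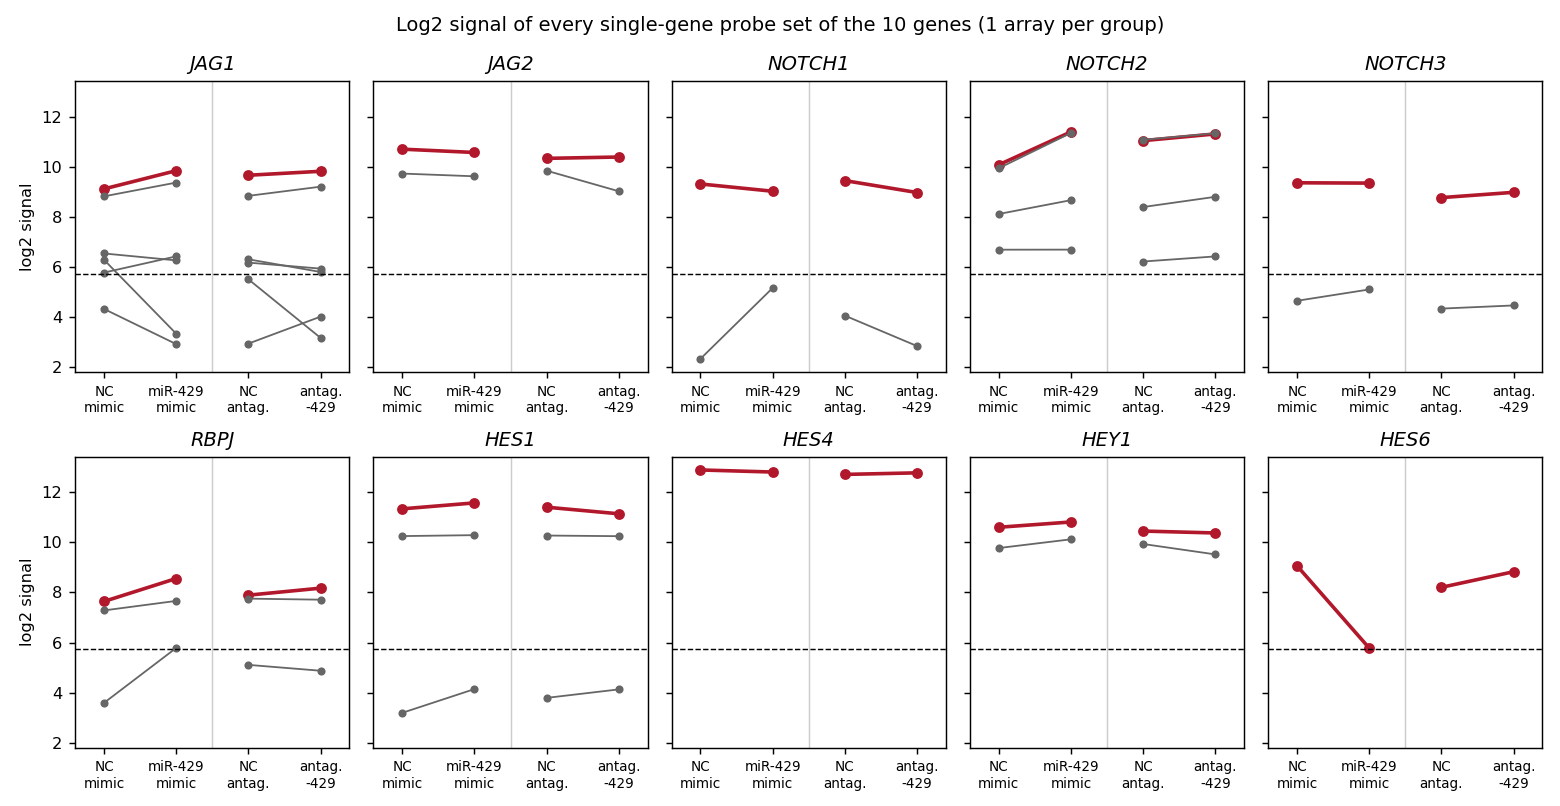
Log2 signal (y axis) of all 26 single-gene probe sets of the 10 genes on the 4 arrays (x axis); the brightest probe set of each gene is red, the others are grey, and the dashed line is the floor (signal 52.9). Lines join the 2 arrays of each pair; HES6 drops to the floor with the miR-429 mimic, while HES1, HES4 and HEY1 stay nearly level and NOTCH2 is low on the NC mimic array.

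Among the receptors, NOTCH2 was the only member past 2-fold upward with the mimic by its brightest probe set. That probe set (212377_s_at) gave 1076 with the NC mimic, 2677 with the miR-429 mimic, 2100.3 with the NC antagomir and 2529 with antagomir-429. The NC mimic array was the low one, and the other 3 lay within 1.27-fold of each other. The log2 ratio was 1.32 with the mimic, 0.27 with the antagomir and 0.97 between the control arrays. A second probe set of almost equal brightness (202443_x_at) gave 978, 2597, 2151 and 2572, with ratios of 1.41, 0.26 and 1.14.

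The 2 dimmer NOTCH2 probe sets showed less of this. The first gave 276, 405, 335 and 444 and a mimic ratio of 0.55, and the dimmest gave 103, 103, 74.1 and 85.3 with 0.00. The probe set shared with the NOTCH2NL genes, partial copies of NOTCH2, was highest on the NC mimic array instead, at 5476, 4899, 4840 and 4026 (mimic ratio -0.16). It reads several genes at once, so NOTCH2 cannot be singled out in it. The median over the NOTCH2 probe sets was 0.93 with the mimic, no longer past 2-fold.

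NOTCH1, the receptor best known from leukaemia, gave 633, 518, 695 and 500 in the same order of arrays. It was lower in both treated arrays than in their controls, with log2 ratios of -0.29 with the mimic and -0.48 with the antagomir. The latter was -1.85 times the robust SD of its signal bin. The second NOTCH1 probe set was under the floor on all arrays and gives no ratio. NOTCH3, a receptor prominent in vascular smooth muscle, gave 654, 649, 434 and 502. Its mimic ratio was -0.01 and its antagomir ratio 0.21, and the EpCAM-positive control was lower than the EpCAM-negative control by a log2 ratio of -0.59. Its second probe set was under the floor throughout.

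Of the ligands, JAG1 is the one most often reported as a target of the miR-200 family. Its brightest probe set (209099_x_at) gave 552 with the NC mimic, 915 with the miR-429 mimic, 806 with the NC antagomir and 900 with antagomir-429. As with NOTCH2 the NC mimic array was lowest, and JAG1 was not lower with the mimic (log2 ratio 0.73) while the antagomir ratio was 0.16. The next probe set gave 450, 658, 456 and 588, with 0.55 and 0.37. Of the 2 dim probe sets still past the filter, 1 was lower with the mimic (92.6 and 76.4) and 1 higher (54.6 and 85.4).

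Another JAG1 probe set went the other way, with 77.7 on the NC mimic array, 10.1 with the miR-429 mimic, 45.3 and 8.95. Only the first of these reaches the floor, so the difference is at least 1.47-fold lower with the mimic and cannot be sized further, and its mean did not pass the filter. The last JAG1 probe set was under the floor on all 4 arrays. JAG2, the second Jagged ligand, gave 1659, 1514, 1286 and 1335 by its brighter probe set (ratios -0.13 and 0.05). Its other probe set gave 845, 783, 914 and 517, so the antagomir-429 array was low there (-0.82) but not in the brighter one.

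RBPJ, the factor through which the receptors act on DNA (211974_x_at), gave 199 with the NC mimic, 376 with the miR-429 mimic, 237 with the NC antagomir and 288 with antagomir-429. It was highest with the miR-429 mimic, at a log2 ratio of 0.92, next with antagomir-429 and lowest with the NC mimic. Its second probe set gave 156, 202, 215 and 209 with a mimic ratio of 0.38, lowest on the NC mimic array and level on the rest. The third passed the floor on 1 array only, at 55.0 with the miR-429 mimic, and its other values have no order.

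By brightest probe set, 1 of 10 genes was at least 2-fold higher with the mimic (NOTCH2) and 1 lower (HES6), beside 5.25% and 3.76% of all expressed genes. Under the stricter filter NOTCH2 was 1 of 9, beside 1.8%. By probe set, 2 of 20 were higher and 1 lower, beside 6.83% and 4.43%. Since the members were chosen with this contrast known, nothing is read from those shares. The median log2 ratio of the 10 genes was 0.10, against -0.002 over all expressed genes, with 5 above 0 and 5 below.

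With the antagomir 0 of 10 genes were past 2-fold in either direction, beside 3.72% higher and 3.53% lower over all expressed genes, and 0 of 20 probe sets beside 9.31%. The members' ratios ran from -0.48 (NOTCH1) to 0.62 (HES6), with a median of 0.11 against 0.01 over all genes. Between the EpCAM-positive and EpCAM-negative controls 0 of 10 genes were past 2-fold, beside 3.62% higher and 4.7% lower. By probe set 1 of 20 was higher, the second NOTCH2 one, beside 5.08%. That comparison shares an array with each of the others. Its ratios ran from -0.86 (HES6) to 0.97 (NOTCH2).

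**Figure D2:**
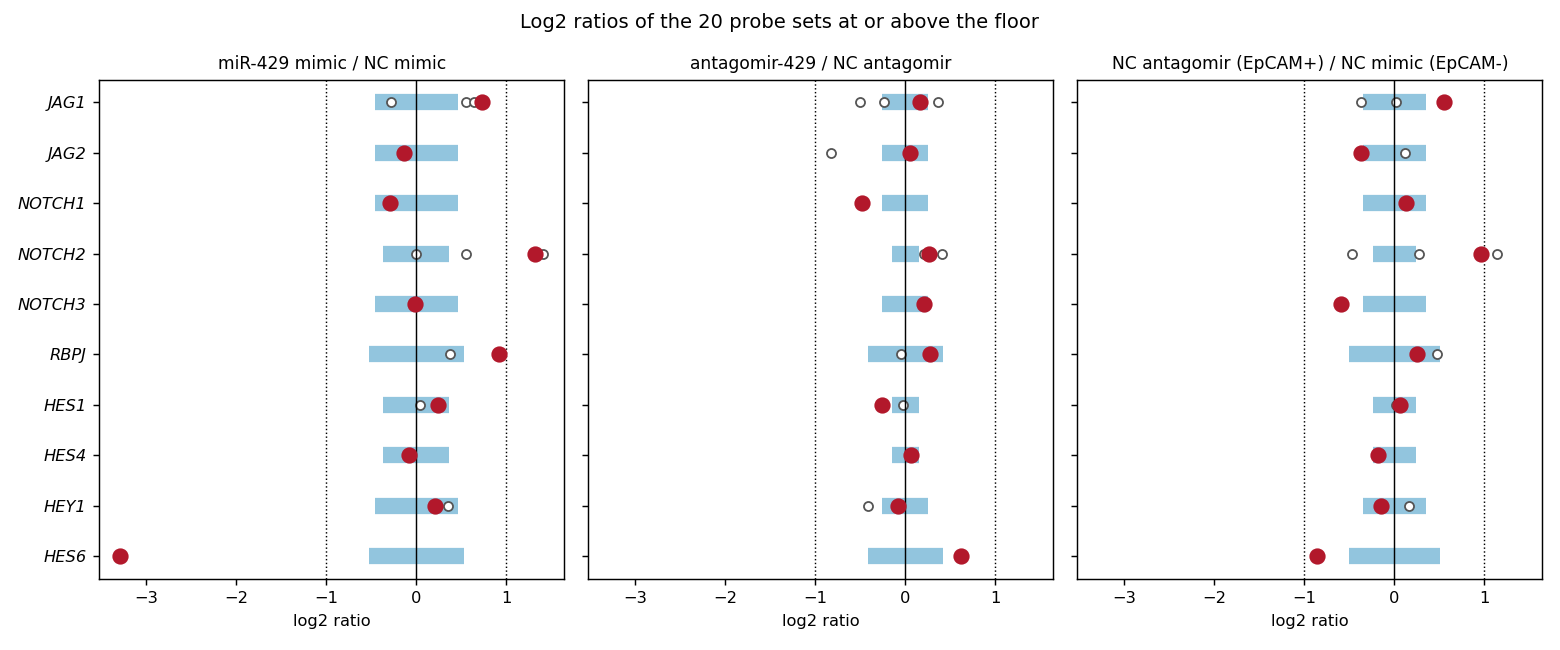
Log2 ratios (x axis) of the 20 probe sets at or above the floor, by gene, for the mimic, the antagomir and the control arrays; red points are the brightest probe sets, open points the others, blue bars plus and minus 1 robust SD of genes of like signal, and dotted lines 2-fold. HES6 (-3.28) and NOTCH2 (1.32) are outside the dotted lines with the mimic, and no brightest probe set is outside them in the other panels.

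Set against signal, the 2 genes past 2-fold lay outside the spread of their neighbours to different degrees. NOTCH2 was the fourth highest of the 3295 genes in the brightest signal bin with the mimic and the seventh highest between the controls, where the NC mimic array is again the denominator. With the antagomir, which does not use that array, it ranked 216 from the top. With the mimic RBPJ and JAG1 ranked 244 and 230 from the top of their bins of 3295 genes.

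**Figure D3:**
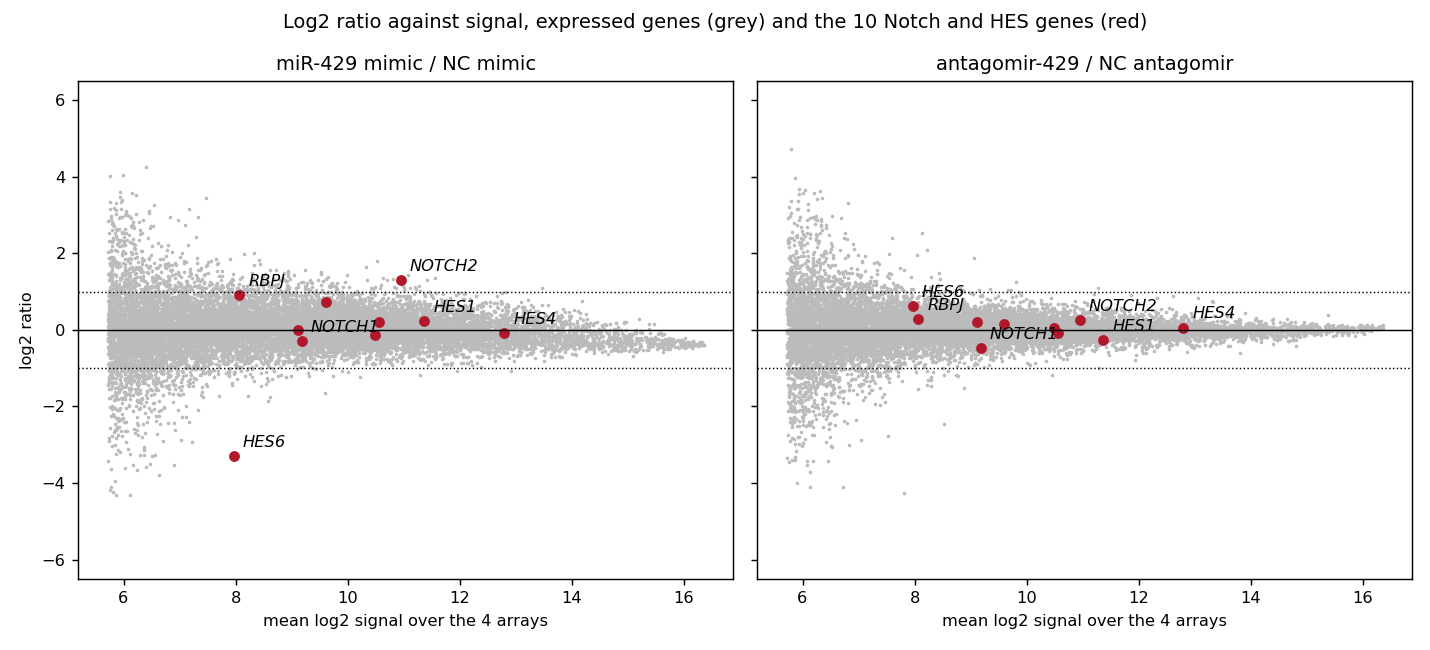
Log2 ratio (y axis) against mean log2 signal (x axis) for the 13180 expressed genes (grey) and the 10 Notch and HES genes (red), with the mimic (left) and the antagomir (right); dotted lines mark 2-fold. With the mimic HES6 lies below the grey cloud at its signal and NOTCH2 near its upper edge, and with the antagomir both lie within 2-fold.

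The members also differ in the length of their genes, a property that moved with the mimic ratio across the whole array. Among 8128 brighter genes with a known span, the median mimic ratio went from -0.24 in the shortest of 5 equal span bins (up to 8.19 kb) to 0.27 in the longest (from 70.4 kb). NOTCH2 (158 kb) and RBPJ (330 kb) are in the longest bin, and their ratios of 1.32 and 0.92 exceed its median by more than its robust SD of 0.44. HES1 (2.58 kb), HES4 (1.13 kb), HES6 (1.77 kb) and HEY1 (3.76 kb) are in the shortest. Of these, HES1, HES4 and HEY1 were above that bin's median, and HES6, at -3.28, was below it. HES6 is itself too dim for the brighter set from which these bins were made, and dimmer genes scatter more. With the antagomir the medians ran from -0.02 to 0.04 over the same bins. The part of gene span in the members' values was not tested.

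**Figure D4:**
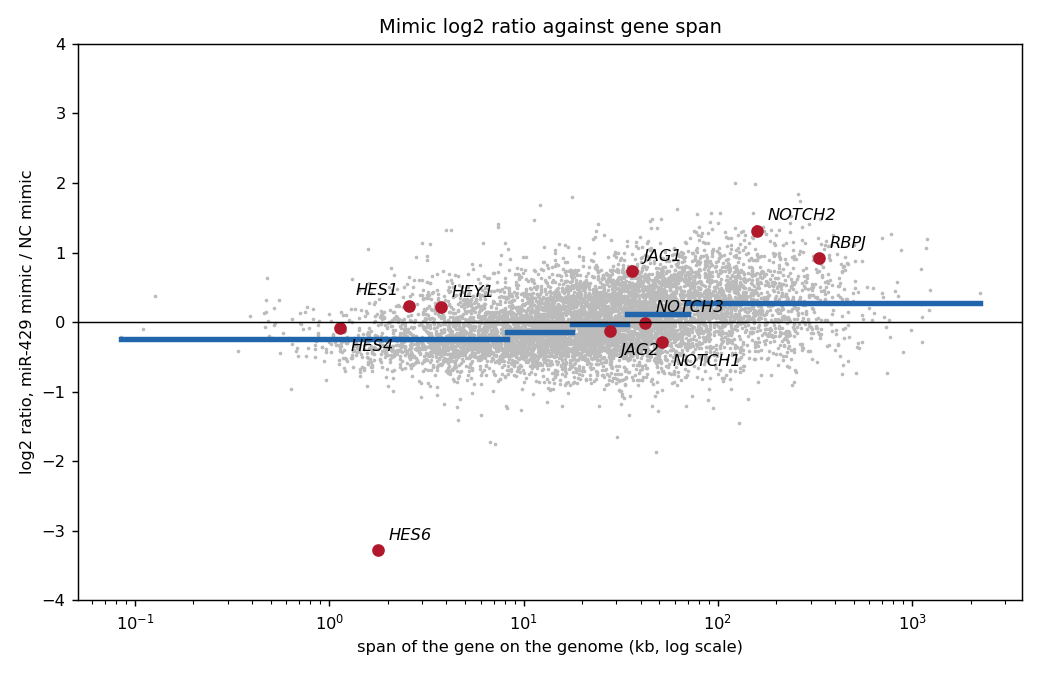
Log2 ratio with the mimic (y axis) against the span of the gene in kb (x axis, log scale) for the brighter genes (grey) and the 10 Notch and HES genes (red); blue lines are the medians of 5 equal span bins. The blue medians climb from -0.24 to 0.27, and the long genes NOTCH2 and RBPJ lie above them. HES6, whose mean signal, low miR-429 mimic array included, is under that of the grey genes, is at -3.28.

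The rest of the pathway was covered by 90 further genes in fixed lists, of which 81 were measured and 71 expressed. With the mimic 6 of 71 (8.45%) were at least 2-fold higher and 2 (2.82%) lower, beside the 5.25% and 3.76% of all expressed genes, with a median of 0.11. These counts use the signals as measured, for the wider genes as for all genes; against the floor, DTX1 among the higher and MFNG among the lower are shown only to be at least 1.75-fold and 1.83-fold apart. With the antagomir 1 (1.41%) was higher and 2 (2.82%) lower, beside 3.72% and 3.53%, with a median of -0.05, and of the lower genes NUMB has a bound of 1.67-fold. Between the controls 3 (4.23%) were higher and 1 (1.41%) lower, beside 3.62% and 4.7%.

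The fringe glycosyltransferases, which modify the receptors and tune their choice of ligand, held both genes that were lower with the mimic. RFNG gave 619 with the NC mimic, 272 with the miR-429 mimic, 483 with the NC antagomir and 503 with antagomir-429, a mimic ratio of -1.19. MFNG gave 96.8, 18.3, 120.3 and 81.9, at least 1.83-fold lower with the mimic. In both, as in HES6, the miR-429 mimic array was the low one. LFNG, the remaining fringe, gave 780, 702, 832 and 669 by its brightest probe set, a ratio of -0.15. Over its 2 probe sets the median mimic ratio was -1.43, past 2-fold lower, but this rests on the dimmer probe set alone. The list of 6 had a median of -0.12, or -0.83 with the median over each gene's probe sets. Both medians over probe sets use signals as measured, with no bound against the floor.

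The nuclear partners included genes that, by brightest probe set, were low on the NC mimic array alone. The corepressor SPEN gave 203, 510, 494 and 569 in the usual order, the Groucho corepressor TLE4 gave 518, 1074, 1131 and 989, and the acetyltransferase CREBBP gave 643, 1196, 1237 and 1410. Their mimic ratios were 1.33, 1.05 and 0.90, but TLE4 had a median of 0.08 over its 5 probe sets. Between the controls their ratios were 1.28, 1.13 and 0.94. The medians over probe sets there were 0.97 for SPEN, -0.10 for TLE4 and 0.16 for CREBBP. EP300, the partner of CREBBP, gave 141, 312, 248 and 194 (ratio 1.14), with a median of 0.85 over its 2 probe sets. Of 6 expressed coactivators 5 were above 0 with the mimic, with a median of 0.61, beside a median of -0.002 over all expressed genes. Of 11 corepressors 7 were, with a median of 0.19. With the median over each gene's probe sets these list medians were 0.41 and 0.14. MAML1 and MAML3, which bridge RBPJ and the acetyltransferases, had 0.48 and 0.74, and MAML2 did not pass the filter. The median over the 3 MAML3 probe sets was 0.35.

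Among receptors and ligands outside the members, NOTCH4 was higher in both treated arrays at dim signals, with 55.1, 156, 41.6 and 111. That is a mimic ratio of 1.50 and at least 2.10-fold higher with antagomir-429. The ligands DLL3 and DLL4 had mimic ratios of -0.33 and -0.42, and antagomir ratios of -0.18 and -0.46. The proteases that cut the receptor showed 0 of 8 genes past 2-fold in any comparison. Of all expressed genes, 9.01% were past 2-fold in either direction with the mimic, 7.25% with the antagomir and 8.32% between the controls. The widest mimic ratios of the proteases were those of ADAM17 (0.79) and the presenilin PSEN2 (-0.65).

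Among regulators of turnover and trafficking, the ubiquitin ligase DTX1, itself a Notch target, was under the floor with the NC mimic only (10.3, 92.8, 108 and 103), at least 1.75-fold higher with the mimic. The kinase AAK1 had a ratio of 1.17, with a median of 0.36 over its probe sets. With antagomir-429 the endocytic adaptor EPN1 was lower (186 and 61.9, ratio -1.59), and NUMB, an inhibitor of Notch, at least 1.67-fold lower (88.4 and 33.0). The ligase DTX3 was at least 2.53-fold lower in the EpCAM-positive control than in the EpCAM-negative one by its brightest probe set. The median over its 5 probe sets there was -0.95, not past 2-fold. With the mimic its brightest probe set gave -0.63 and that median 1.68, so its probe sets differ.

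The other expressed HES and HEY relatives had medians near 0, at 0.03 with the mimic and -0.06 with the antagomir. By brightest probe set none of HES2, HES5, HES7, HEY2, BHLHE40 and BHLHE41 was past 2-fold in any of the 3 comparisons. The shares over all expressed genes were 9.01% with the mimic, 7.25% with the antagomir and 8.32% between the controls. The median over the HES2 probe sets was however -1.13 with the mimic. HEYL, a further Notch-induced repressor, did not pass the filter on its mean; it was above the floor in both treated arrays only (16.1, 84.2, 34.6 and 100.1). Its bounds against the floor were 1.59-fold for the miR-429 mimic over its control and 1.89-fold for antagomir-429 over its own. These are from the brighter HEYL probe set. Over its 2 probe sets the median ratio was 1.56 with the mimic but -0.16 with the antagomir. The feedback inhibitor NRARP, a direct Notch target, had 0.11 and -0.40, MYC had 0.31 and -0.27, and CCND1 had 0.27 and 0.02. SOX9, a bile duct factor under Notch control, had 0.83 with the mimic (846 and 1503) and -0.07 with the antagomir. The list of proneural and ID partners of HES6 and HES1 also takes in TCF3, TCF4 and TCF12. It held 0 of 6 expressed genes past 2-fold in any comparison, beside those same shares over all expressed genes.

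Of 6 Notch genes listed as reported miR-200 family targets, 5 were expressed. A fall in target mRNA would give a mimic ratio below 0, and its relief an antagomir ratio above 0. By brightest probe set 0 of the 5 were at least 2-fold lower with the mimic, beside 3.76% of all expressed genes. With the antagomir 0 of the 5 were at least 2-fold higher, beside 3.72%. JAG2 alone had that pair of signs, at -0.13 and 0.05, both within the robust SD of genes of like signal. Over both JAG2 probe sets the antagomir median was -0.38. Ratios of mRNA between single arrays cannot decide whether a gene is a target, and targeting was not tested.

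**Figure D5:**
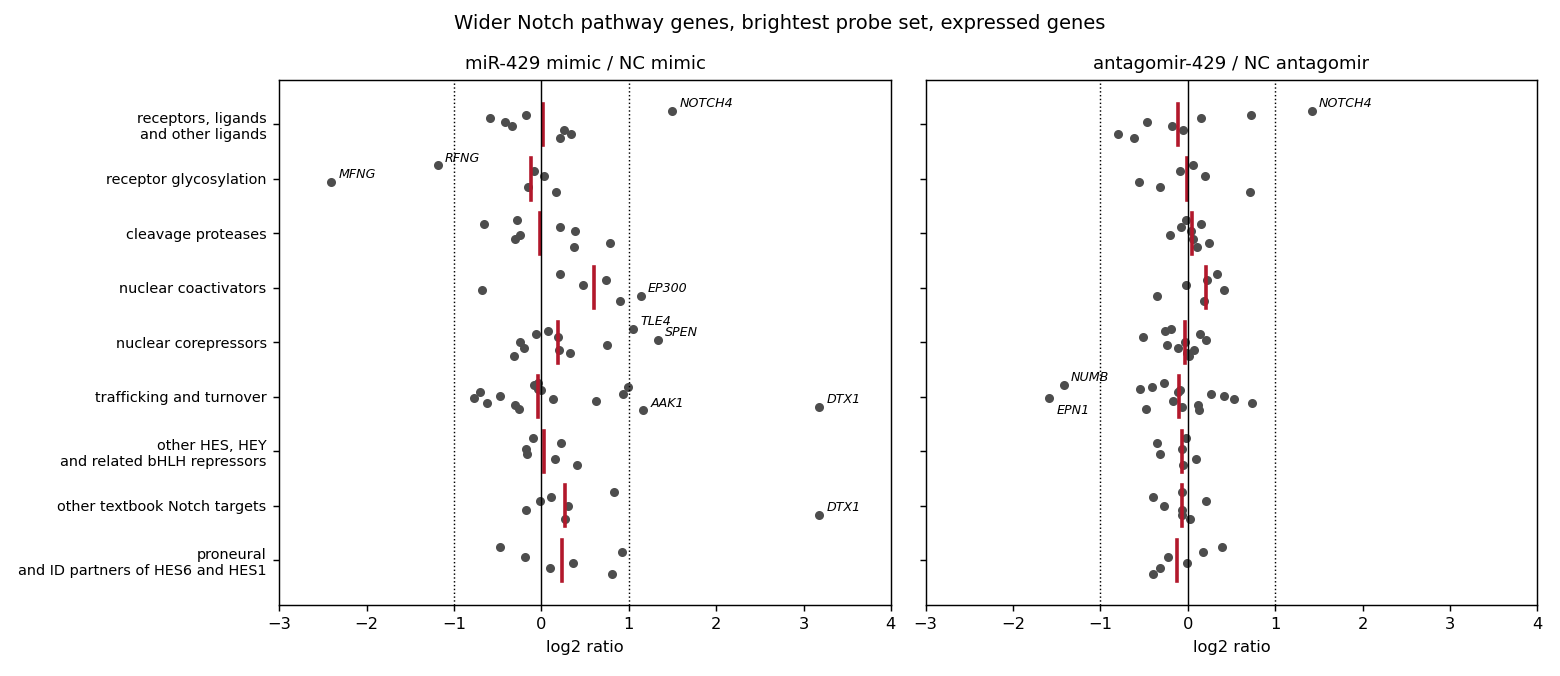
Log2 ratios (x axis) of the expressed genes of the wider Notch lists (y axis) with the mimic (left) and the antagomir (right); grey points are genes, red bars the list medians, dotted lines 2-fold, and genes past 2-fold are named. A gene in 2 lists appears in both; DTX1 and MFNG are under the floor on 1 mimic-pair array, and the coactivator list has the highest median with the mimic, 0.61.

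Which array set a gene apart was counted by brightest probe set, with signals under the floor raised to it. The limit of 1.5-fold was chosen after the values were seen. The NC mimic array was lowest of all 4 by that margin for NOTCH2 and for 7 of the 71 wider genes (9.86%), beside 3.58% of expressed genes. Those 7 were AAK1, CREBBP, DTX1, DTX3L, SPEN, TCF12 and TLE4. The miR-429 mimic array was lowest for HES6 and for 3 wider genes (4.23%), MFNG, RFNG and the presenilin PSEN2, beside 2.14%. It was highest for 0 members and for 4 wider genes (5.63%), ADAM17, ATOH1, ITCH and SOX9, beside 2.63%. For genes with the NC mimic array lowest, the array standing apart was the single control array of the mimic ratio. The reason was not tested.

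The genes most like the members over the 4 arrays were found by the distance between mean-centred log2 signals, for the 3 members with the widest range. Nearest to HES6 were TMEM59L, PRKAR1B and MAGED1, at distances of 0.31 to 0.33. All 3 were under the floor with the miR-429 mimic (18.9, 31.6 and 18.4) and between 98.6 and 238 on the other arrays. Nearest to NOTCH2 was ATP9A, at 0.02, with 388, 960, 747 and 916, followed by ADAMTS12 and COX6A1P1. Nearest to RBPJ were FZD5, ATP6V1A and NFAT5, at 0.04 to 0.07. With 4 points a gene, such likeness is a description of these arrays.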

How the data were processed

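Total RNA of 4 HCCLM3 samples was hybridised to 1 array each. The deposited values are log2 signals made by the authors with MAS5, per the submitters' processing notes; no version or detection call was used here. Taken back from log2, the signals had a common 2% trimmed mean of 500.1, from which the log base and the authors' scaling were read, and no further scaling was applied.

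Probe sets were named from the platform annotation, with symbols updated by Entrez identifier through RefSeq (GRCh38.p14; 41043 of 41097 single-gene probe sets matched). A gene was represented by the probe set with the highest mean log2 signal. Expressed means a mean at or above the median probe set. A difference with 1 array under the floor is a bound against the floor. With 1 array per group no test or error was possible, and precision is limited by that number. Scatter is 1.4826 times the median absolute deviation in 4 signal bins.

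Named genes were the members on every probe set, wider-list genes past 2-fold (up to 4 per list and comparison) and the 3 nearest in pattern to 3 members; other genes of those lists and the marker genes were named after their values were seen. The members, lists and rules were chosen with earlier results of these data known. The alternatives tried were no filter, a stricter filter, 16 signal units added before log2, quantile normalization, median centring and the median over probe sets. That median used every probe set of a gene at or above the floor on any array, with signals as measured. The counting code was tested on simulated data (Python 3.11.15, pandas 2.3.3).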

Additional observations from a re-analysis of the deposited data

How the results depend on the processing

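Under median centring, quantile normalization and the offset, every member kept the sign of its ratio in all 3 comparisons, and HES6 stayed between -3.38 and -2.96 with the mimic. The number of members past 2-fold with the mimic, 2 as reported, was 1 with the median over probe sets (NOTCH2 lost, at 0.93). It was also 1 under the stricter filter, which HES6 does not pass because its mean takes in the low miR-429 mimic array. Between the control arrays it was 0 as reported and 1 with median centring, where NOTCH2 reached 1.01. Of the wider genes, 8 were past 2-fold with the mimic, 3 with the antagomir and 4 between the controls. The stricter filter gave 4, 0 and 2, no filter gave 12, 8 and 10, and the median over probe sets gave 9, 4 and 4. With the median over probe sets 4 of 30 member ratios changed sign. These were JAG1, JAG2 and RBPJ with the antagomir (-0.24, -0.38 and -0.04) and HEY1 between the controls (0.01). In the antagomir pair, 1 RBPJ probe set (34.5 and 29.3) and 1 JAG1 probe set (45.3 and 8.95) were under the floor on both arrays. The JAG1 and RBPJ medians thus rest in part on values without order. The cause of the sign changes was not tested. No paired analysis was possible because each group has 1 array. Probe sets near the floor limit what can be sized in either pair.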
